A study of Caenorhabditis elegans with 27 samples.

Results

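The siRNAs described here are antisense to genes of nucleotidyltransferases, the enzymes that add nucleotides to RNA 3′ ends. The genes were chosen by symbol: *cid-1*, the gene of the poly(U) polymerase PUP-1, *pup-2*, *pup-3*, *gld-2* and *gld-4*. Of these 5 genes, 3 had a row in the count table used, namely *cid-1*, *pup-3* and *gld-2*, among 10062 rows of siRNAs and 20150 sRNA rows in all. The siRNAs of *pup-2* and *gld-4* were not analysed here. Small RNA of 1-day adult *C. elegans* hermaphrodites raised at 22 °C was sequenced as 27 libraries of whole animals, 6 of wild type (N2) and 3 of each of 7 *pup* mutant strains. The single mutants were *pup-1(tm1021)*, *pup-2(tm4344)*, *pup-3(tm5089)* and *pup-4(om141)*, and each is hereafter written with (0) in place of its allele, as in *pup-1(0)*. The compound strains were the double mutant *pup-1/-2(om129)*, the triple mutant, which adds *pup-3(tm5089)* to it, and the quadruple mutant, in which *pup-4(om141)* is added as well.

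The strains differ in which of the enzymes they lack. *cid-1* is mutated in *pup-1(0)* and in the double, triple and quadruple mutants, *pup-2* in *pup-2(0)* and the same 3 compound mutants, and *pup-3* in *pup-3(0)*, the triple and the quadruple. No strain was labelled with a mutation of *gld-2* or *gld-4*. The *pup-1* and *pup-2* alleles were kept over a balancer chromosome, and the animals harvested from those strains were offspring of homozygous mutant mothers. The ends of the *tm* and *om129* deletions are not given in the sources used here. Each value is a sum of antisense reads over the coding sequence of a gene. The reads of a mutant gene can come from what the allele leaves of it, although read positions were not examined. Their level is therefore no check of the strain labels.

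Most siRNAs of *C. elegans* are made by RNA-dependent RNA polymerases that copy a target transcript, and an Argonaute protein then carries them. PUP-1 adds uridines to the 3′ ends of siRNAs, and it is known for its work on the siRNAs of the Argonaute CSR-1, which binds siRNAs against germline genes. PUP-2 and PUP-3 are related poly(U) polymerases. GLD-2 and GLD-4 are cytoplasmic poly(A) polymerases that lengthen mRNA tails in the germ line, where they act in the decision between mitosis and meiosis and in gamete formation.

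Between 972048 and 17562388 counts were obtained per library, with a median of 6692414, and 5 libraries held fewer than 3000000. Levels are given in CPM, counts relative to a library size scaled by TMM, and 3 counts corresponded to 0.171 to 3.09 CPM. This floor covers counting error only. piRNAs, which are made in the germ line, took 1.78 to 5.72% of the counts, with 2.18 to 5.72% in wild type and 1.78 to 5.44% in *pup-1(0)*. Of 4 somatic miRNAs listed as markers 3 were matched by name (*lin-4*, *mir-1* and *lsy-6*). Their summed level, nearly all of it *mir-1*, ran from 3381 to 92554 CPM in wild type, 1536 to 8169 in *pup-1(0)*, 2483 to 14937 in *pup-2(0)*, 6216 to 21616 in *pup-3(0)*, 10094 to 16954 in *pup-4(0)*, 9871 to 14079 in the double, 2072 to 8689 in the triple and 9123 to 17574 in the quadruple. *lin-4* alone had 504 ± 301 CPM in wild type (SD, n = 6), 427 ± 377 in *pup-1(0)* and 790 ± 570 in the double (SD, n = 3). *lsy-6* was at 0 in at least 1 wild-type library. In whole animals, fewer cells that make an siRNA and less of it per cell cannot be told apart.

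All 3 genes were well represented in wild type, at very different levels. *cid-1* (WBGene00019629; WBcel235 chromosome III, 5173922 to 5180507, plus strand) had the highest level, 1217 ± 220 CPM (SD, n = 6). Its wild-type libraries held 1369, 1559, 1143, 1229, 954 and 1049 CPM. *gld-2* (WBGene00001596; chromosome I, 6369748 to 6386194, plus strand) had 96.5 ± 17.9 CPM, with 92.4, 102.9, 99.6, 63.7, 104.4 and 116.3 CPM in replicates 1 to 6. *pup-3* (WBGene00019082; chromosome I, 5530614 to 5534649, minus strand) had 59.0 ± 21.7 CPM, with 83.9, 34.5, 45.3, 87.0, 56.0 and 47.1 CPM. Relative to its mean, *pup-3* varied most among the wild-type libraries, and its highest value was in replicate 4, where *gld-2* was at its lowest.

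**Figure D1:**
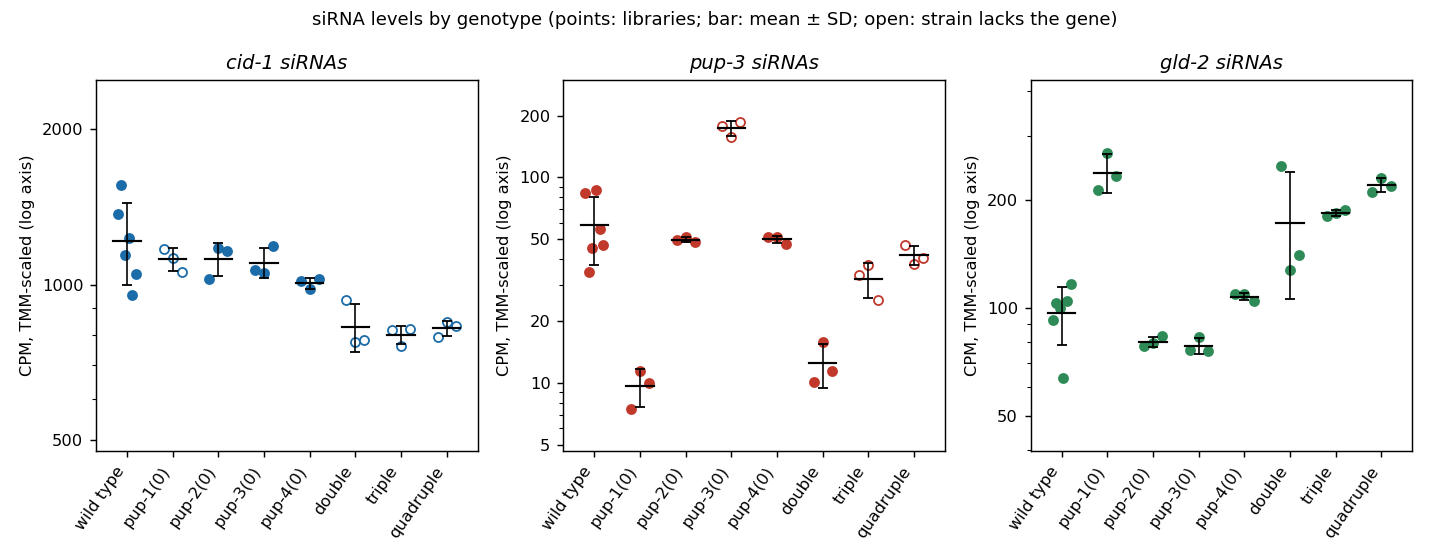
siRNA levels of *cid-1*, *pup-3* and *gld-2* in each library (points), on log axes in TMM-scaled CPM, with the mean and SD of each genotype (6 wild-type libraries, 3 of each mutant strain). Open points are libraries of strains in which the gene is mutated. *pup-3* siRNAs lay between 157 and 187 CPM in *pup-3(0)* and between 7.44 and 15.8 CPM in *pup-1(0)* and the double mutant, while *gld-2* siRNAs lay above the wild-type range in the 4 strains without *pup-1*.

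Levels of different genes were compared per kb of coding sequence, since a longer gene can give more siRNAs. The coding sequences are 4.275 kb for *cid-1*, 1.446 kb for *pup-3* and 4.827 kb for *gld-2*. These lengths of the intact genes were used in every strain. Where *cid-1* or *pup-3* is mutated, the length that remains is not known here, so levels per kb and their order are less certain there. Per kb, *cid-1* had 285 ± 51.5 CPM in wild type, *pup-3* had 40.78 ± 14.98 and *gld-2* had 20.002 ± 3.708 (SD, n = 6). Ranked from the highest of the 10062 siRNA rows, these levels placed *cid-1* at 419, *pup-3* at 2416 and *gld-2* at 3742.

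The order of the 3 genes per kb was not the same in all strains. *cid-1* was above both others in 27 of 27 libraries. *pup-3* was above *gld-2* in all 6 wild-type libraries and in all libraries of the strains that keep *pup-1*, namely *pup-4(0)*, *pup-3(0)* and *pup-2(0)*. *gld-2* was above *pup-3* in 12 libraries, which were the 3 libraries each of *pup-1(0)*, the double, the triple and the quadruple. In *pup-1(0)*, *gld-2* had 49.3 ± 6.06 CPM per kb and *pup-3* had 6.65 ± 1.40 (SD, n = 3). In *pup-3(0)*, *pup-3* had 120.0 ± 10.5 CPM per kb and *gld-2* had 16.2 ± 0.822.

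**Figure D2:**
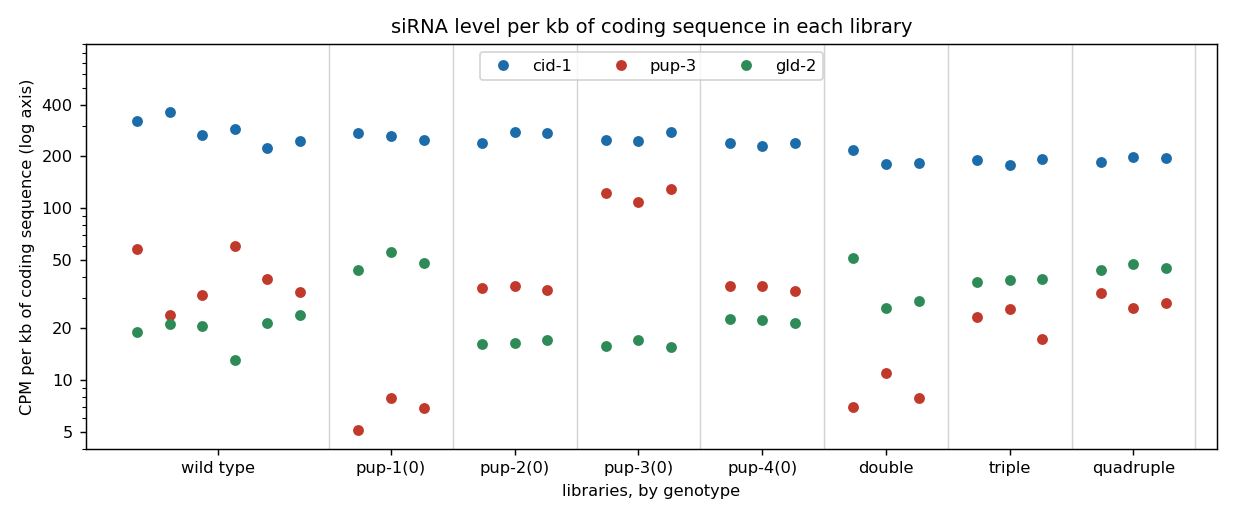
siRNA level per kb of coding sequence (CPM per kb, log axis) of the 3 genes in each of the 27 libraries, grouped by genotype. *cid-1* is above the others in every library. *gld-2* is above *pup-3* in the 12 libraries of the 4 strains that lack *pup-1* and in no library of the other strains. Lengths of the intact genes were used in every strain.

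The question for each gene was whether loss of one or more PUP enzymes changed its siRNAs. A change was called at an adjusted p under 0.05 and more than 2-fold, with edgeR (quasi-likelihood) and Benjamini-Hochberg adjusted values over the 9645 sRNAs tested, and all 3 genes passed the filter on low counts. In *pup-1(0)*, 2 of the 3 genes were called against 21.0% of all tested sRNAs, with *gld-2* higher and *pup-3* lower. In *pup-2(0)*, 0 of 3 were called (background 0.518%) by edgeR or by DESeq2, and 0 had an unadjusted p under 0.05. In *pup-3(0)*, 1 of 3 was called, *pup-3* itself (background 0.404%). In *pup-4(0)*, 0 of 3 were called by either tool (background 0.0518%), and 1 of 3 (*cid-1*) had an unadjusted p under 0.05. In the double mutant 1 of 3 was called, *pup-3* (background 21.1%), in the triple 0 of 3 (background 17.6%) and in the quadruple 1 of 3, *gld-2* (background 21.2%). In the triple, DESeq2 also called 0, and 3 of 3 genes had an adjusted p under 0.05 from edgeR with a change of under 2-fold, as against 31.7% of all sRNAs with such a p at any fold.

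*gld-2* siRNAs were higher in the strains that lack *pup-1*. GLD-2 is the catalytic subunit of a poly(A) polymerase that promotes entry into meiosis. The *pup-1(0)* libraries held 212, 270 and 232 CPM, and the quadruple mutant libraries 209.8, 230 and 218 CPM. The triple mutant libraries held 180.3, 184 and 186 CPM. The double mutant libraries held 248, 128 and 140.1 CPM. The lowest of these 12 values, 128 CPM, was above the highest wild-type value of 116 CPM, so that none of the 4 strains overlapped wild type.

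Against wild type, *gld-2* siRNAs rose by a log2 fold change of 1.30 ± 0.16 in *pup-1(0)* (SE, edgeR adjusted p = 7.87e-07) and of 1.18 ± 0.16 in the quadruple (edgeR adjusted p = 3.23e-06). The change was 0.83 ± 0.16 in the double (edgeR adjusted p = 2.86e-04) and 0.92 ± 0.16 in the triple (edgeR adjusted p = 9.95e-05), both short of 2-fold. An adjusted p under 0.05 with a higher level in all 4 of these strains was shared by 876 tested sRNAs, 9.08% of all, so that *gld-2* followed a pattern common in the table. These 4 comparisons use the same wild-type libraries. Background shares of sRNAs whose mutant libraries all lay above wild type were 14.6% in *pup-1(0)*, 11.1% in the double, 13.2% in the triple and 16.8% in the quadruple.

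The 3 libraries of the double mutant differed more in *gld-2* than those of any other strain, with a mean of 172 ± 66.5 CPM (SD, n = 3). The highest value, 248 CPM, came from replicate 1. In that library siRNAs made up 77.1% of all counts, while they made up 49.96% and 51.1% in the other two. The part of this share in the result was not tested. Without double mutant replicate 1, the log2 fold change of *gld-2* in the double was 0.46. With 6 factors of unwanted variation in the model it was 1.02 and was called.

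In the strains that keep *pup-1*, *gld-2* siRNAs stayed within 75.6 to 109.0 CPM. *pup-2(0)* libraries held 78.4, 79.6 and 83.3 CPM, *pup-3(0)* libraries 76.1, 82.7 and 75.6 CPM and *pup-4(0)* libraries 109.0, 108.8 and 104.2 CPM. These values lay within the wild-type range of 63.7 to 116 CPM. The log2 fold changes were −0.27 with a 95% interval of −0.60 to 0.07 in *pup-2(0)*, −0.30 (−0.64 to 0.03) in *pup-3(0)* and 0.15 (−0.17 to 0.47) in *pup-4(0)*.

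From the highest mean, the order of *gld-2* levels was *pup-1(0)*, quadruple, triple, double, *pup-4(0)*, wild type, *pup-2(0)* and *pup-3(0)*. The triple and the double did not differ beyond their spread (log2 difference 0.09 ± 0.19, edgeR adjusted p = 0.892). Quadruple libraries were all above the triple libraries, but the difference of 0.26 ± 0.19 did not pass the test (edgeR adjusted p = 0.576), and 21.0% of tested sRNAs had quadruple libraries all above the triple ones. The double against *pup-1(0)*, which differ in *pup-2* and also in the *pup-1* allele, gave −0.47 ± 0.19 (edgeR adjusted p = 0.130), with 4.12% of sRNAs called in that comparison and 0 of the 3 genes by edgeR or DESeq2, although 2 had an unadjusted p under 0.05. In the triple against *pup-3(0)*, which adds *pup-1/-2(om129)*, *gld-2* siRNAs rose by 1.23 ± 0.20 (edgeR adjusted p = 4.30e-05). In this last comparison 2 of the 3 genes were called, against 18.5% of all tested sRNAs.

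**Figure D3:**
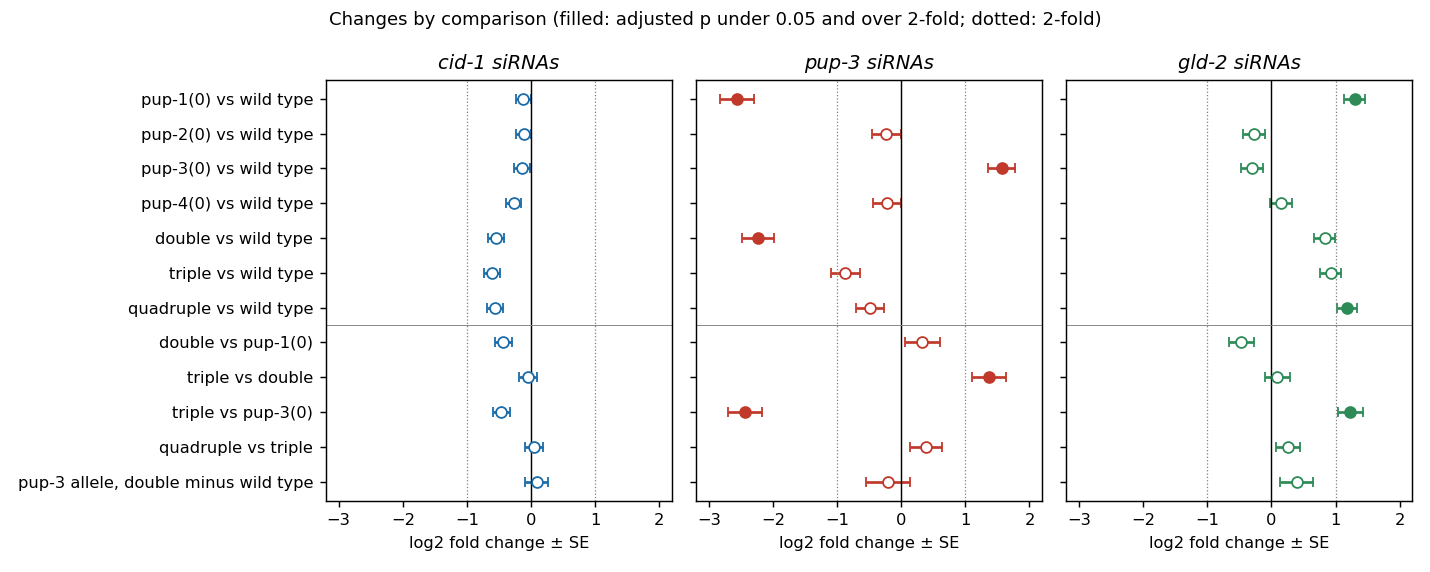
log2 fold change with its SE (edgeR) of the siRNAs of each gene in the 7 comparisons with wild type (above the grey line), 4 steps between mutants and the difference in the effect of the *pup-3* allele between the double mutant and wild type (below it). Filled points were called and dotted lines mark 2-fold. *gld-2* is filled on the right in *pup-1(0)* (1.30), the quadruple (1.18) and the triple against *pup-3(0)* (1.23). *pup-3* is filled on both sides, and *cid-1* in no comparison.

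*pup-3* siRNAs were called in both directions. PUP-3 is a poly(U) polymerase found in the germ line. The *pup-1(0)* libraries held 7.44, 11.4 and 9.99 CPM from 12, 70 and 92 counts, and the double mutant libraries held 10.1, 15.8 and 11.5 CPM from 61, 75 and 68 counts. All 6 values were below the lowest wild-type value of 34.5 CPM. In *pup-3(0)*, the libraries held 177, 157 and 187 CPM, all above the highest wild-type value of 87.0 CPM. In *pup-1(0)* 12.1% of all tested sRNAs had mutant libraries all below wild type, in the double 12.0%, and in *pup-3(0)* 2.44% had them all above.

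Thus *pup-3* siRNAs fell by 2.56 on the log2 scale in *pup-1(0)* (SE 0.26, edgeR adjusted p = 4.42e-08) and fell by 2.23 in the double (SE 0.25, edgeR adjusted p = 2.90e-07). They rose by 1.57 ± 0.21 in *pup-3(0)* (SE, edgeR adjusted p = 2.08e-04), where the gene itself is mutated. Fitted with *pup-3(0)* and wild type alone, the change in *pup-3(0)* was 1.55 with an adjusted p of 0.142, and it was no longer called. Of the 9645 tested sRNAs, 3 (0.0311%) were called lower in both *pup-1(0)* and the double and higher in *pup-3(0)*. Besides *pup-3* they were the siRNAs of *tag-68* and Y43B11AL.1, which were named after their values were seen. The rule for this count copies the pattern of *pup-3* itself, so it is a description and no separate support.

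The triple and quadruple mutants carry both alterations, the loss of *pup-1* and *pup-2* and the *pup-3* allele. *pup-3* siRNAs lay between these extremes there, at 33.5, 37.5 and 25.3 CPM in the triple and 46.6, 38.0 and 40.7 CPM in the quadruple. Both strains overlapped the wild-type range. Against wild type the log2 fold change was −0.87 ± 0.23 in the triple (edgeR adjusted p = 0.00520) and −0.49 ± 0.22 in the quadruple (edgeR adjusted p = 0.0906). Without triple mutant replicate 2 the value in the triple was −1.01, which was called. Against *pup-3(0)*, *pup-3* siRNAs of the triple fell by 2.44 on the log2 scale (SE 0.27, edgeR adjusted p = 3.17e-07).

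The effect of the *pup-3* allele on its own siRNAs was therefore measured in both backgrounds. In the double mutant background (triple against double) *pup-3* siRNAs rose by 1.36 ± 0.27 (SE, edgeR adjusted p = 0.0131), and the 3 triple libraries were all above the 3 double libraries, as were those of 6.0% of tested sRNAs. It was 1 of 3 genes called in this step, against 0.487% of all tested sRNAs. *pup-3* was the only one of 9645 tested sRNAs (0.0104%) called higher both in *pup-3(0)* against wild type and in the triple against the double. In these comparisons 25 and 18 sRNAs were called higher. This rule copies the pattern of *pup-3* itself, so the count is a description and no separate support. The rise in the double background minus that in the wild-type background was −0.20 ± 0.34 (95% interval −0.88 to 0.47, edgeR adjusted p = 0.872), and 0.653% of sRNAs were called for this difference. None of the 3 genes was called for it by edgeR or DESeq2, and 0 had an unadjusted p under 0.05.

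The call of *pup-3* in the triple against the double rested on few libraries. It was lost without double mutant replicate 3 (log2 fold change 1.32, adjusted p = 0.0694), without triple mutant replicate 1 (1.35, adjusted p = 0.0540) and without triple mutant replicate 2 (1.22, adjusted p = 0.0950). A fit of those 2 genotypes alone gave 1.34 with an adjusted p of 0.162. Across all 27 fits that left out 1 library the value stayed between 1.22 and 1.58.

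From the highest mean, the order of *pup-3* levels was *pup-3(0)* with 174 ± 15.2 CPM, wild type with 59.0 ± 21.7, *pup-4(0)* with 50.01 ± 2.10, *pup-2(0)* with 49.8 ± 1.23, the quadruple with 41.8 ± 4.42, the triple with 32.1 ± 6.22, the double with 12.5 ± 3.001 and *pup-1(0)* with 9.62 ± 2.02 (SD, n = 3 except wild type). *pup-2(0)* and *pup-4(0)* did not differ from wild type beyond their spread, with log2 fold changes of −0.23 (95% interval −0.67 to 0.20) and −0.23 (−0.65 to 0.20). Quadruple libraries were all above the triple libraries, as were those of 21.0% of tested sRNAs. The difference of 0.38 ± 0.26 (95% interval −0.12 to 0.88) did not pass the test (edgeR adjusted p = 0.520). In that comparison 0.612% of sRNAs were called and 0 of the 3 genes by edgeR or DESeq2, with 0 at an unadjusted p under 0.05. The double and *pup-1(0)* did not differ beyond their spread (0.33 ± 0.28, edgeR adjusted p = 0.469).

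*cid-1* siRNAs varied least. They were present in every strain in which the gene itself is mutated, at 1171, 1128 and 1059 CPM in *pup-1(0)*, 933, 775 and 783 CPM in the double, 818, 762 and 821 CPM in the triple and 792, 847 and 833 CPM in the quadruple. The *pup-1(0)* values lay inside the wild-type range of 954 to 1559 CPM. Those of the compound mutants were all below 954 CPM. Libraries all below wild type were found for 12.0% of sRNAs in the double, 12.9% in the triple and 15.6% in the quadruple.

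In *pup-1(0)*, the log2 fold change of *cid-1* siRNAs was −0.12 with a 95% interval of −0.36 to 0.11. It was −0.55 ± 0.12 in the double (edgeR adjusted p = 9.98e-04), −0.61 ± 0.12 in the triple (edgeR adjusted p = 4.55e-04) and −0.56 ± 0.12 in the quadruple (edgeR adjusted p = 7.73e-04), each under the 2-fold threshold. Scaled by total counts in place of TMM, the latter 2 were −0.33 (adjusted p = 0.150) and −0.25 (adjusted p = 0.257), while the median of all tested sRNAs moved by 0.24 and 0.30. Between the double and *pup-1(0)* the difference was −0.43 ± 0.14 (edgeR adjusted p = 0.0584). These strains carry different alleles of *cid-1* itself, *om129* and *tm1021*. What each allele leaves of the gene to give reads was not examined. The triple and *pup-3(0)* differed by −0.46 ± 0.14 (edgeR adjusted p = 0.0129), and with total counts by −0.02 (adjusted p = 0.960), where the median of all moved by 0.42.

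In the strains that keep *pup-1*, *cid-1* siRNAs held 1026, 1179 and 1162 CPM in *pup-2(0)*, 1070, 1052 and 1189 CPM in *pup-3(0)* and 1018, 979 and 1026 CPM in *pup-4(0)*, all within the wild-type range. From the highest mean the order was wild type, *pup-2(0)*, *pup-1(0)*, *pup-3(0)*, *pup-4(0)*, double, quadruple and triple, and neighbours from wild type to *pup-3(0)* overlapped. The triple and the double (−0.05 ± 0.14, edgeR adjusted p = 0.919) and the quadruple and the triple (0.04 ± 0.14, edgeR adjusted p = 0.927) did not differ beyond their spread.

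The ratio of 2 genes within one library does not depend on how library sizes are scaled. These ratios were chosen after the values were seen and are given without a test. A ratio to *cid-1* also moves with *cid-1* itself. That gene is mutated in the strains without *pup-1*, and its siRNAs were lower in the double, triple and quadruple. The count of *gld-2* siRNAs per *cid-1* siRNA was 0.0518 to 0.111 in wild type. It was 0.181 to 0.239 in *pup-1(0)*, 0.165 to 0.266 in the double, 0.220 to 0.241 in the triple and 0.262 to 0.271 in the quadruple, all above wild type. In geometric means these were 2.68, 2.51, 2.90 and 3.37 times the wild-type ratio. By edgeR, *gld-2* alone was at 2.46, 1.78, 1.90 and 2.27 times its wild-type level in these strains. The 3 strains that keep *pup-1* overlapped wild type.

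The count of *pup-3* siRNAs per *cid-1* siRNA was 0.0221 to 0.0708 in wild type, 0.00635 to 0.0101 in *pup-1(0)*, 0.0108 to 0.0204 in the double and 0.149 to 0.166 in *pup-3(0)*, none of which overlapped wild type. In the triple, at 0.0308 to 0.0492, and the quadruple, at 0.0448 to 0.0589, it lay within the wild-type range. Per *gld-2* siRNA, *pup-3* was at 0.335 to 1.37 in wild type and at 0.0351 to 0.0431 in *pup-1(0)*. It was below wild type in all 12 libraries of the strains without *pup-1*, up to 0.222 in the quadruple, and above it in *pup-3(0)*, at 1.90 to 2.47.

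**Figure D4:**
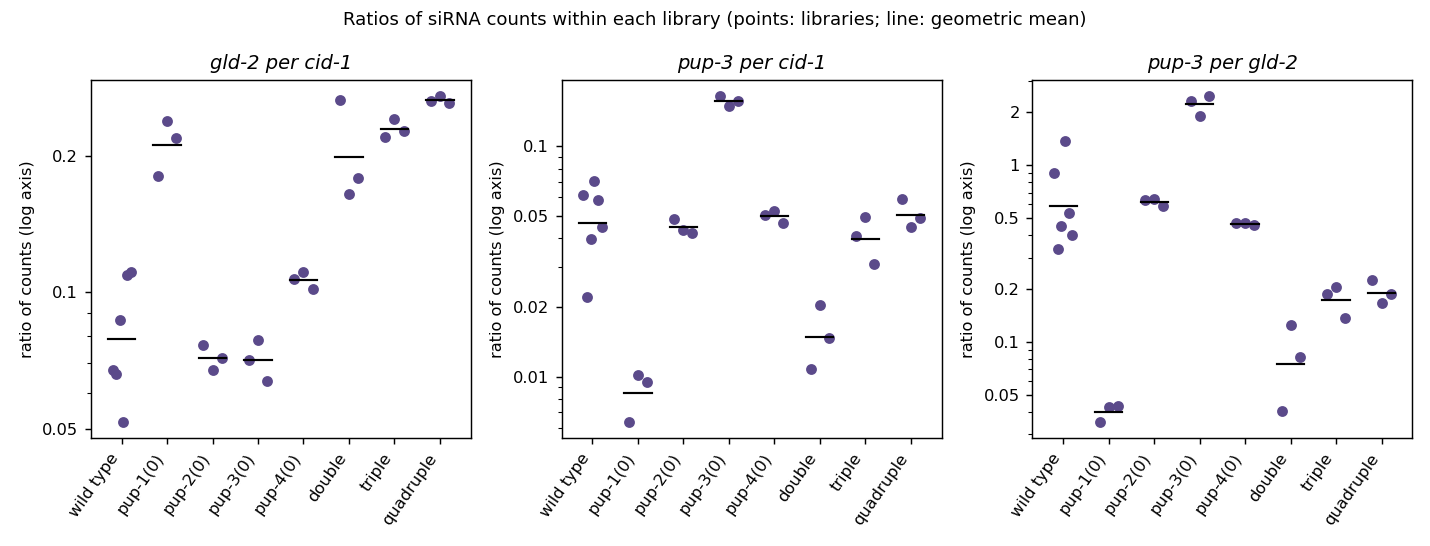
Ratios of siRNA counts of 2 genes within each library (points, log axes), with the geometric mean of each genotype as a line. *gld-2* per *cid-1* lies above the wild-type range of 0.0518 to 0.111 in the 4 strains without *pup-1*. *pup-3* per *cid-1* lies below wild type in *pup-1(0)* and the double and above it in *pup-3(0)*. The denominator *cid-1* is itself mutated in the 4 strains without *pup-1*.

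siRNAs of other nucleotidyltransferases and their cofactors were examined next. Of 11 listed genes 6 had rows and 5 passed the filter. One of these, the noncanonical poly(A) polymerase gene *tent-5*, reached the cutoff of the filter (1.49 CPM) in 3 mutant libraries, 2 of them of the double, and in 0 wild-type libraries. Since it passed only through libraries where it is high, its call in the double was not counted. Of the other 4, 1 was called in *pup-1(0)*, *gls-1*, which encodes the partner of GLD-4 and was named after its values were seen. In that strain 21.0% of all sRNAs were called. That of *gls-1* was the only call in 28 tests (4 genes in 7 strains), by edgeR and likewise by DESeq2, beside 4.39% of all tests called higher and 7.31% lower by edgeR. An unadjusted p under 0.05 was found in 10 of the 28 tests, or 35.7%, beside 28.6% over all sRNAs. These tests repeat the same 4 genes against the same wild-type libraries and are not independent. The median log2 fold change over the 4 was 0.60 in *pup-1(0)*, 0.29 in the double, 0.30 in the triple and 0.71 in the quadruple, beside −0.26, −0.12, −0.20 and −0.13 over all tested sRNAs.

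*gls-1* siRNAs had 148 ± 17.8 CPM in wild type (SD, n = 6) and rose by 1.13 ± 0.13 in *pup-1(0)* (SE, edgeR adjusted p = 1.93e-07), where the libraries held 268 to 376 CPM against at most 166 CPM in wild type. In the double, triple and quadruple the log2 fold changes were 0.59, 0.80 and 0.88. *tent-5* was at most at 0.705 CPM in wild type and at 0.662 to 2.53 CPM in the double, levels near the floor of the libraries. *gld-3*, whose protein activates GLD-2, had between 0 and 15 counts in each library and was not tested. *usip-1*, which encodes a uridylyltransferase of the U6 snRNA, and *pap-1*, the gene of a nuclear poly(A) polymerase, were tested and not called, with log2 fold changes of 0.52 and 0.67 in *pup-1(0)*. *pap-3*, named for another poly(A) polymerase, was at −0.28 in *pup-1(0)*, −0.02 in the double, 0.20 in the triple and 0.83 in the quadruple, and was not called in these strains.

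Of 15 listed genes of deadenylases and RNA decay, 5 had rows and all 5 were tested. *parn-1* siRNAs were called lower in 3 strains. PARN-1 trims the 3′ ends of piRNAs. Its siRNAs had 949 ± 280 CPM in wild type (SD, n = 6), with 721 as the lowest library. The libraries of *pup-1(0)* held 346 to 527 CPM, those of the triple 432 to 497 CPM and those of the quadruple 436 to 475 CPM. These siRNAs fell by 1.07 on the log2 scale in *pup-1(0)* (edgeR adjusted p = 9.83e-05), by 1.02 in the triple (edgeR adjusted p = 1.94e-04) and by 1.08 in the quadruple (edgeR adjusted p = 9.31e-05). In the double, with 677 to 723 CPM, the log2 fold change was −0.43 (edgeR adjusted p = 0.0743). *lsm-1*, which encodes a subunit of a decapping activator and was named after its values were seen, was called lower in the quadruple, with a log2 fold change of −1.21. The calls were thus 1 of 5 genes in *pup-1(0)*, 1 of 5 in the triple and 2 of 5 in the quadruple, beside 21.0%, 17.6% and 21.2% of all sRNAs. Over 35 tests 4 (11.4%) were called lower and 0 higher by edgeR, beside 7.31% and 4.39% of all tests. DESeq2 called 3 lower and 0 higher. An unadjusted p under 0.05 was found in 16 of the 35 (45.7%), beside 28.6% over all sRNAs. *parn-1* gave 3 of the 4 edgeR calls. The tests repeat the same 5 genes against the same wild-type libraries and are not independent. The gene of the exonuclease XRN-1 came to 0.95 in *pup-1(0)*, under the 2-fold threshold. The median over the 5 genes was −0.11 in *pup-1(0)*, −0.31 in the double, −0.28 in the triple and −0.50 in the quadruple.

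Of 4 listed partners of PUP-1 in the CSR-1 pathway, 2 had rows and both were tested. *csr-1*, the gene of the Argonaute itself, had 398 ± 65.3 CPM of siRNAs in wild type (SD, n = 6) and 640 to 741 CPM in *pup-1(0)*. The log2 difference of 0.79 ± 0.12 (edgeR adjusted p = 8.57e-06) was under 2-fold. *ekl-1*, which encodes a Tudor-domain partner of the RNA-dependent RNA polymerase EGO-1, came to 0.44 ± 0.11 (edgeR adjusted p = 0.00215). In 14 tests over the 7 strains 0 were called by edgeR or DESeq2, although 10 (71.4%) had an unadjusted p under 0.05, beside 28.6% over all sRNAs. Both genes had such a p in *pup-1(0)*, *pup-4(0)*, the double, the triple and the quadruple. The 14 tests repeat 2 genes against the same wild-type libraries and are not independent. The median of both was 0.61 in *pup-1(0)*, 0.29 in the double, 0.33 in the triple and 0.53 in the quadruple.

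**Figure D5:**
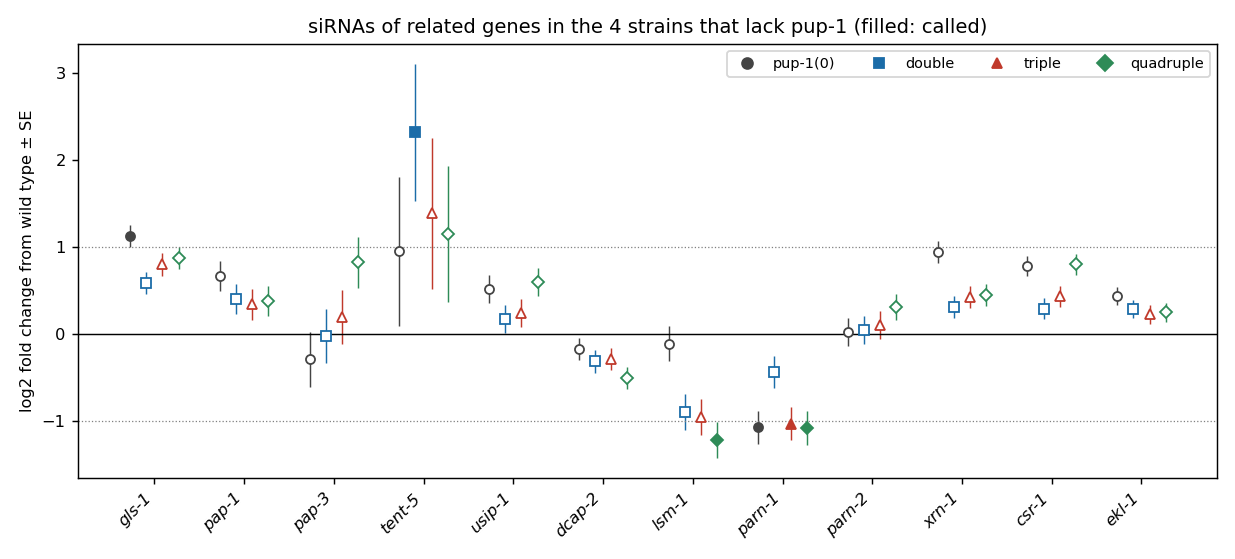
log2 fold change from wild type with its SE (edgeR) of siRNAs of 12 related genes in the 4 strains that lack *pup-1*. Filled symbols were called and dotted lines mark 2-fold. *parn-1* is filled below the line in 3 strains, and *gls-1* above it in *pup-1(0)*. *tent-5*, filled in the double, was under the filter's cutoff in all 6 wild-type libraries.

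Over the 8 genotype means of log2 CPM, the siRNA rows most like *gld-2* among 7183 others were *glna-2* (Pearson r = 0.999), *erfa-1* (0.998) and F22G12.5 (0.998). In all 3 the mean was higher in *pup-1(0)* than in any other strain, as in *gld-2*. The rows most like *pup-3* were *str-245* (r = 0.963), *taf-13* (0.960) and F46B3.15 (0.942). Their highest mean was in *pup-3(0)*, at log2 CPM values of 2.99, 2.83 and 1.84 beside 7.44 for *pup-3*. These correlations are descriptions over 8 points that share their libraries and scaling.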

How the data were processed

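Small RNA was prepared by the authors from whole 1-day adults and treated with 5′ polyphosphatase, in 6 independent replicates of wild type and 3 of each mutant according to the methods of the study. The authors trimmed the reads with cutadapt, kept those of 15 to 26 nt, aligned them with HISAT2 and obtained counts with smalldisco. Versions of these tools are not given in the sources used here. The deposited values are raw counts per sRNA and library, not normalized. Those of a gene sum the reads that lie antisense to its coding sequence. Tails added to siRNA 3′ ends were not analysed here.

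Symbols, positions and coding lengths came from Ensembl 115 (WBcel235), which held 20147 of the 20150 IDs and is not the gene set used for counting. In R 4.3.3 with edgeR 4.0.16, low rows were removed (filterByExpr, minimum count 10), TMM factors were applied, and a robust quasi-likelihood model of genotype was fitted over all 27 libraries. Intervals of 95% were taken from the SE by a normal approximation. Alternatives were DESeq2 1.42.0, a likelihood ratio test, 6 factors of unwanted variation, other scalings and filters, siRNAs alone, a block of replicate numbers, subsets of the wild-type libraries, only the genotypes compared, and leaving out each library. The number of factors is that of the study, which used EDASeq and RUVSeq. Here the factors were estimated without those packages, from deviations of libraries from their genotype means. Leaving out the 5 shallowest libraries was added after seeing the data. Labels name no batch, and which wild-type replicates were run beside which mutants is not given in the sources used here. The highest correlation of log2 CPM between 2 libraries was 0.99, and no library was taken for a copy of another. The steps were tested on simulated data. Plots were drawn with matplotlib 3.10.9.

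The genes and the lists of related genes were chosen with earlier results of these data known. All chosen genes with a row were named. Related genes were named where called in at least 2 strains or at 0, neighbours (protein-coding, within 25 kb) where they overlap, and the 3 siRNA rows of highest Pearson r with a chosen gene. Any other gene named was picked after its values were seen. No sequences are printed, since none were in the reference tables used here.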

Additional observations from a re-analysis of the deposited data

Results flagged for a closer look

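The share of counts on piRNAs was 5.72% in 1 wild-type library (replicate 1), and its gap to the next of the 6 libraries was 0.745 of their whole range, above the critical value of 0.625 for a single outlying sample. That library held 2054529 counts, and its siRNA levels were 1369 CPM for *cid-1*, 83.9 CPM for *pup-3* and 92.4 CPM for *gld-2*, none of which stood apart by the same criterion. Chance alone sets off this criterion in about 1 of 20 groups.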

How the results depend on the processing

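Of the calls against wild type, those of *gld-2* in *pup-1(0)* and the quadruple and of *pup-3* in *pup-1(0)* and the double held under all 14 alternatives of processing and without any 1 library. The call of *pup-3* in *pup-3(0)* held in 13 of 14 and was lost with only the genotypes compared (log2 fold change 1.55). That fit also ended the call of *pup-3* in the triple against the double (1.34), and leaving out 1 library gave 1.22 to 1.58. *gld-2* passed 2-fold in the triple with total counts (1.14) and in the double with 6 factors of unwanted variation (1.02). *pup-3* in the triple ran from −1.01 to −0.67 without 1 library. The causes were not tested. Depth limits *pup-3* most, with 12 counts in the shallowest *pup-1(0)* library.

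Values near 0 changed sign, and none of them was called. With total counts these were *pup-3* in *pup-4(0)* (0.049), *cid-1* in the triple against the double (0.27) and the difference of *pup-3* between backgrounds (0.32). With 6 factors they were *pup-3* in the double against *pup-1(0)* (−0.14) and *gld-2* in the triple against the double (−0.030). For *cid-1* in the quadruple against the triple the value was −0.028 with siRNAs alone, −0.032 with wild-type replicates 4 to 6, −0.015 with only the genotypes compared and −0.013 without the 5 libraries of under 3000000 counts, an alternative chosen after seeing the data. Without 1 library these ranges were −0.035 to 0.074 for this value, −0.29 to 0.016 for *pup-3* in *pup-4(0)*, −0.079 to 0.052 for *cid-1* and −0.053 to 0.47 for *gld-2* in the triple against the double, and −0.35 to 0.049 for the difference of *pup-3* between backgrounds.

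Total counts moved the median over all sRNAs by −0.20 in *pup-3(0)*, 0.10 in *pup-1(0)*, 0.23 in *pup-4(0)*, 0.24 in the triple, 0.30 in the quadruple, −0.18 in the double against *pup-1(0)*, 0.32 in the triple against the double, 0.42 in the triple against *pup-3(0)* and 0.52 for the difference between backgrounds. Calls higher and lower were then 9 and 18 in *pup-3(0)* (main 25 and 14; 17 and 15 with DESeq2 size factors), 873 and 841 in the triple (553 and 1146), 1218 and 799 in the quadruple (801 and 1245), 28 and 16 in the triple against the double (18 and 29), 1358 and 705 in the triple against *pup-3(0)* (628 and 1155) and 59 and 22 for the difference between backgrounds (21 and 42).

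The number of sRNAs called moved more than the values of the 3 genes. For the single mutants of *pup-2*, *pup-3* and *pup-4*, in that order, it was 50, 39 and 5 in the model used, 110, 125 and 49 with DESeq2, 131, 137 and 16 with the likelihood ratio test, 170, 245 and 8 with 6 factors, 235, 258 and 9 with wild-type replicates 4 to 6, and 3, 11 and 0 with only the genotypes compared (edgeR, with 298 sRNAs of *pup-4(0)* at an unadjusted p under 0.05). Without the shallow libraries it was 167 in *pup-2(0)* and 92 in *pup-3(0)*, and with wild-type replicates 1 to 3 it was 203 in *pup-4(0)*. The double had 1289 against wild type with only the genotypes compared (2039 in the model used).

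For the double against *pup-1(0)* it was 397, and 251 with total counts, 670 with DESeq2, 657 with the likelihood ratio test, 259 at 10 CPM in at least 3 libraries, 978 with wild-type replicates 4 to 6, 85 with only the genotypes compared and 782 without the shallow libraries. The triple against the double had 47, and 175 with DESeq2, 184 with the likelihood ratio test, 76 with siRNAs alone, 182 with 6 factors, 203 with wild-type replicates 4 to 6 and 23 with only the genotypes compared. The quadruple against the triple had 59, and 189, 198, 177, 287 and 436 in the same order without siRNAs alone, 113 with wild-type replicates 1 to 3 and 251 without the shallow libraries. The difference between backgrounds had 63, and 189 with DESeq2, 192 with the likelihood ratio test, 266 with 6 factors, 335 with wild-type replicates 4 to 6, 22 with only the genotypes compared and 127 without the shallow libraries.

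Leaving out 1 library gave 1719 to 2226 calls in *pup-1(0)*, 22 to 106 in *pup-2(0)*, 13 to 65 in *pup-3(0)*, 3 to 15 in *pup-4(0)*, 1719 to 2685 in the double, 1437 to 1834 in the triple and 1685 to 2395 in the quadruple. It gave 152 to 974 for the double against *pup-1(0)*, 15 to 336 for the triple against the double, 1458 to 1975 for the triple against *pup-3(0)*, 20 to 126 for the quadruple against the triple and 31 to 318 for the difference between backgrounds.

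Replicate numbers were not taken as pairs. Deviations of same-numbered libraries correlated at −0.23 to 0.44 (median 0.10), and 42 of 84 correlations were over 0.1. Those of different-numbered libraries had a median of −0.042, with 29 of 168 over 0.1. Of 24 libraries, 19 correlated best with their own number. The libraries of under 3000000 counts were all replicate 1. With the replicate number as a block, 0 of 36 calls of the 3 genes changed and their values moved by at most 0.16, while the calls became 213 in *pup-4(0)* and 161 in the quadruple against the triple. In that fit wild-type replicates 4 to 6 each have a level of their own and so add nothing to the comparisons.

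Levels per kb moved by more than 1 SD of the replicates in 18 of 24 cases with exon in place of coding length, and in 13 of 24 with total counts.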

Other observations

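In *pup-1(0)*, the siRNAs of genes that lie next to the nucleotidyltransferase genes did not share one direction of change. Within 25 kb of *cid-1*, 10 of 17 protein-coding genes had rows and all 10 were tested. In *pup-1(0)*, where 21.0% of all sRNAs were called, 1 of these 10 was called higher and 1 lower, and the median log2 fold change was 0.22 beside −0.26 over all tested sRNAs, with *cid-1* itself at −0.12. Within 25 kb of *pup-3*, 8 of 11 had rows and were tested. In *pup-1(0)*, where *pup-3* siRNAs fell, 2 of these 8 were called higher and 0 lower, and the median was 0.16. Of all 9645 tested sRNAs, 718 were called higher in that strain and 1305 lower. In *pup-3(0)*, where *pup-3* siRNAs rose, all 8 neighbours had a log2 fold change below 0, from −1.66 to −0.10 with a median of −0.29 beside −0.06 over all tested sRNAs, and each missed the thresholds for a call.

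Around *gld-2*, 6 of 13 neighbours had rows and 4 were tested. In *pup-1(0)*, where *gld-2* siRNAs rose, 2 of these 4 were called lower, against 21.0% of all sRNAs called in either direction. One of them is *klu-2*, which overlaps the 3′ end of *gld-2* on the opposite strand, with 0 bp of shared coding sequence. Its siRNAs changed by −4.04 ± 1.27 on the log2 scale in *pup-1(0)* (SE, edgeR adjusted p = 0.0156) and by −0.90 ± 0.99 in the double (edgeR adjusted p = 0.517). The change was also below 0, and not called, in the strains that keep *pup-1*. It was −1.62 ± 1.04 in *pup-2(0)*, −2.23 ± 1.13 in *pup-3(0)* and −1.85 ± 1.02 in *pup-4(0)*. The triple was at −2.37 ± 1.13 and the quadruple at −1.56 ± 1.01, likewise not called.

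Although the siRNAs of *pup-2* and *gld-4* themselves were not analysed here, siRNAs of genes beside them were measured. Of 14 neighbours of *pup-2*, 6 were tested, and 1 was called higher and 1 lower in *pup-1(0)*. These tested genes are *cid-1* and genes already counted as its neighbours. Of the 9 tested neighbours of *gld-4*, 3 were called higher and 1 lower in *pup-1(0)*, 4 of 9 beside 21.0% of all sRNAs. One of the higher ones was ZK858.8, a gene named after its values were seen, with 1.76 ± 0.43 in *pup-1(0)*, 1.86 ± 0.43 in the double, 2.23 ± 0.43 in the triple and 1.69 ± 0.42 in the quadruple (SE on the log2 scale, edgeR adjusted p from 2.97e-04 to 0.00300).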
